A study of Mus musculus with 4 samples.

Results

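The 10 chemokine ligand genes Ccl2, Ccl3, Ccl4, Ccl5, Ccl6, Ccl7, Ccl12, Cxcl2, Cxcl10 and Cxcl16 were followed through single brain cells of mice with and without an ischemic stroke. They were taken by name from the 32286 features of the count matrices. The cells came from mice of the genotype Tmem119-2A-CreERT2;Ai6, in which Cre recombinase is tied to the microglial gene Tmem119 and switches on the green fluorescent protein ZsGreen. Stroke was a permanent closure of the right middle cerebral artery, called pMCAO, and sham mice had the surgery without the ligation. On day 3 the hemisphere of the operated side was taken, live ZsGreen-positive cells were sorted, and RNA of single cells was counted with 10x Genomics 3' v3.1 chemistry. There were 4 pools of 4 mice each, a sham and a stroke pool of each sex, and all carried the same alleles. The pools are called F sham, F stroke, M sham and M stroke below, F for female and M for male, and values are listed in that order. The age of the mice is not stated in the labels. With 1 pool per sex and treatment, the variation between mice is unknown, and p-values do not measure it. The p-values rest on 1 residual degree of freedom among these pools and mostly on a variance shared across all genes. A difference between libraries cannot be told apart from one of sex or treatment.

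Chemokines are small secreted proteins that guide white blood cells along concentration gradients by binding receptors on the cell surface. Ccl2, Ccl7 and Ccl12 bind Ccr2 and draw monocytes, and Ccl3, Ccl5 and Ccl6 bind Ccr1. Cxcl2 acts on Cxcr2 of neutrophils and Cxcl10 on Cxcr3 of activated T cells, while Cxcl16 is made as a membrane protein that binds Cxcr6 and can be shed by the protease Adam10. In the injured brain, microglia and incoming macrophages are both known sources of such ligands.

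After quality control 18045 of 20437 barcodes remained. Clusters were made without any chemokine ligand gene and without 6 sex-linked genes, and were named from marker lists. Microglia-like cells were 13864 of these, with 3102 in the F sham, 3462 in the F stroke, 4056 in the M sham and 3244 in the M stroke pool. All 12 microglia markers, P2ry12 and Tmem119 among them, were detected in them in each pool. They summed to between 180 and 317 UMIs (unique molecular identifiers, counted RNA molecules) per 10000. Of the other lists, the 10 T or NK cell markers summed to at most 0.0419. The 9 ependymal or choroid plexus markers summed to 5.83, 1.71, 16.8 and 1.11 in the order of the pools. The 10 dendritic cell markers reached 3.75 in M sham microglia-like cells. The median UMI count of these cells lay between 5422 and 8867, and the M sham barcodes had been selected at a higher minimum of 4198 UMIs. Between 3 and 9 barcodes of kept cells were shared by any pair of pools. The other named cells of the stroke pools were mainly monocyte-derived macrophage-like, with 1066 female and 562 male cells against 13 and 44 in the sham pools.

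Most of these genes lie close together. In build mm10 (GRCm38), the GENCODE M21 annotation places Ccl2 (ENSMUSG00000035385) on chromosome 11 from 82035571 to 82037453, Ccl7 from 82045712 to 82047525 and Ccl12 from 82101845 to 82103400. Further along the same chromosome stand Ccl5 from 83525778 to 83530518, Ccl6 from 83587882 to 83593087, Ccl3 from 83647844 to 83649355 and Ccl4 from 83662584 to 83664683. Cxcl16 lies apart on chromosome 11 from 70453983 to 70459984. Cxcl2 is on chromosome 5 from 90903871 to 90905938 and Cxcl10 on the same chromosome from 92346638 to 92348889. The annotation lists each of them as a protein-coding gene.

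The first comparison asked how microglia-like cells differed between stroke and sham pools. Ccl2, the main monocyte attractant, stood at 0.216 UMIs per 10000 in F sham, 2.75 in F stroke, 0.464 in M sham and 3.00 in M stroke microglia-like cells. Both stroke pools were above both sham pools, and the exact Poisson 95% intervals, which cover counting error only, did not overlap (2.70 to 2.81 in F stroke against 0.196 to 0.238 in F sham). The log2 change was 3.47 ± 0.17 (SE), with an adjusted p of 6.83e-35 by edgeR's quasi-likelihood test with Benjamini-Hochberg adjustment over all genes. CPM, the UMIs scaled per library by edgeR, gave a 16.1-fold rise in females and a 7.85-fold rise in males, and this difference between the sexes was not tested. The log2 change of Ccl2 was 2.90 ± 0.08 without the F sham and 4.13 ± 0.09 without the M sham pool. Fits that leave out 1 pool have no sex term, and the treatment left with 1 pool is assumed to vary like the other. Ccl12, a close relative of Ccl2, had the most UMIs of the 10 ligands in the stroke pools. It stood at 1.72, 9.83, 2.59 and 9.16 UMIs per 10000 in the same order. It rose by 2.47 ± 0.17 on the log2 scale (edgeR adjusted p = 5.81e-25). Ccl7, the neighbour of Ccl2 on the chromosome, was scarce, with 24 UMIs in the F sham, 399 in the F stroke, 57 in the M sham and 401 in the M stroke pool. Its log2 change was 2.83 ± 0.23 (edgeR adjusted p = 9.59e-20). The rise of Ccl7 was 2.63 ± 0.26 (edgeR adjusted p = 6.49e-07) without the microglia-like cells that held a UMI of a macrophage marker. That filter was uneven, leaving 2896 of 3102 F sham, 2288 of 3462 F stroke, 3813 of 4056 M sham and 2378 of 3244 M stroke cells. After thinning to 3000 UMIs a cell the rise of Ccl7 was 1.99 ± 0.30. It was 3.47 ± 0.21 without the M sham pool and 2.19 ± 0.24 under stricter quality control, which keeps cells with at least 1000 genes and 2000 UMIs and at most 5% mitochondrial UMIs and clusters them anew.

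Ccl3 and Ccl4, which encode the inflammatory proteins MIP-1 alpha and MIP-1 beta, had smaller log2 changes. Ccl4 stood at 1.21 UMIs per 10000 in F sham, 4.24 in F stroke, 2.74 in M sham and 3.57 in M stroke microglia-like cells. Its CPM gave a 4.43-fold rise in females and a 1.58-fold rise in males, and this difference between the sexes was not tested. The log2 change of Ccl4 was 1.40 ± 0.17 (edgeR adjusted p = 1.99e-11), but DESeq2 gave 1.43 ± 0.70 and no call (adjusted p = 0.103). It was 0.78 ± 0.10 without the F sham pool and 2.08 ± 0.11 without the M sham pool. Ccl3 went from 0.766 to 2.49 UMIs per 10000 in the F pools and from 1.56 to 2.45 in males, a log2 change of 1.48 ± 0.16 (edgeR adjusted p = 5.60e-14). Without the F sham pool it was 0.93 ± 0.06 and without the M sham pool 2.08 ± 0.06. The M sham pool also had the highest level of immediate early genes such as Fos and Jun, a list of 9 genes that stood at 17.5, 13.2, 32.8 and 13.7 UMIs per 10000 in F sham, F stroke, M sham and M stroke. Its part in the level of Ccl3 and Ccl4 was not tested.

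Cxcl10, the interferon-inducible attractant of T cells, stood at 0.181 UMIs per 10000 in F sham, 1.16 in F stroke, 0.1702 in M sham and 1.14 in M stroke microglia-like cells. The rise was 8.09-fold in females and 8.11-fold in males, or 3.02 ± 0.15 on the log2 scale (edgeR adjusted p = 3.46e-34). Of the 358 F sham UMIs, 46.9% came from 1 cell, and of the 410 M sham UMIs, 28.3%. Without the cell richest in each ligand in each pool, an alternative chosen after seeing the data, the log2 change of Cxcl10 was 3.85 ± 0.16. It was 2.36 ± 0.27 without cells holding a macrophage marker UMI, the filter above that took out more stroke than sham cells. Cxcl16 went from 0.634 to 1.43 UMIs per 10000 in the F pools and from 0.676 to 1.42 in males. Its log2 change was 1.43 ± 0.14 (edgeR adjusted p = 1.35e-15), with both stroke pools close to each other and both sham pools as well.

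Ccl5 and Ccl6 did not pass the test. Ccl6, a ligand of Ccr1, stood at 2.13, 2.05, 2.19 and 2.11 UMIs per 10000 in F sham, F stroke, M sham and M stroke. Its log2 difference on the TMM scale was 0.25 ± 0.14 (edgeR adjusted p = 0.127), and -0.06 with library totals in place of TMM. Ccl5, best known from T cells, stood at 0.0802, 0.0685, 0.111 and 0.124 in the same order, with a log2 difference of 0.28 ± 0.17 (edgeR adjusted p = 0.169). That of Ccl5 turned to -0.03 with library totals and to -0.18 without the M stroke pool, and it passed the test at 0.83 ± 0.19 under stricter quality control. Cxcl2, the neutrophil attractant, had 0 UMIs in the F sham, 13 in the F stroke, 2 in the M sham and 29 in the M stroke pool. It did not pass the filter on low counts. In the M stroke pool 51.7% of the Cxcl2 UMIs came from 1 cell.

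**Figure D1:**
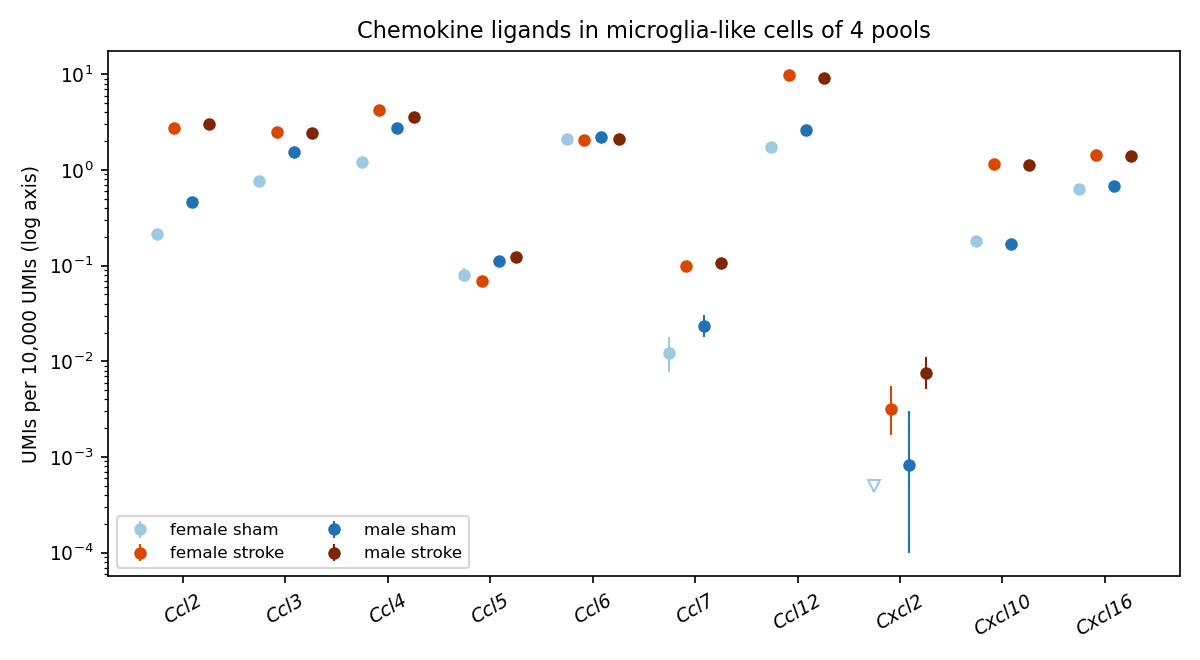
UMIs of each chemokine ligand per 10000 UMIs (log axis) in the microglia-like cells of the 4 pools, 1 point per pool with the exact Poisson 95% interval of the count, the open triangle marking a count of 0 and having no height of its own. The stroke pools lie above both sham pools for Ccl2, Ccl3, Ccl4, Ccl7, Ccl12, Cxcl10 and Cxcl16, and Ccl12 reaches 9.83 and 9.16, while Ccl6 stays between 2.05 and 2.19.

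In all, 7 of the 9 ligands tested rose and 0 fell by edgeR's quasi-likelihood test, Cxcl2 being the untested one. Over all 14287 genes tested, 25.7% rose (3665 genes) and 26% fell (3712 genes), or 2309 and 6570 with library totals, so calls were common in this comparison. The median log2 difference was 1.48 over the 9 ligands and -0.05 over all genes. The count was between 6 and 9 risen ligands over the 16 alternatives, with 0 fallen in each, DESeq2 included. In 6 of the alternatives Cxcl2 was tested too, so that 10 ligands were, among them 3 of the fits without 1 pool. It was called higher with no filter on low counts, with the minimum of 4198 UMIs in all pools and under stricter quality control. In the main sums the sham pools held 0 and 2 Cxcl2 UMIs and the stroke pools 13 and 29. At such sham counts a call of lower was hardly possible, so the Cxcl2 calls add little to the counts of risen ligands. Over the 6 alternatives the log2 change of Cxcl2 ran from 1.46 under stricter quality control to 7.24 without the M sham pool. The latter is set against the F sham pool with 0 Cxcl2 UMIs and does not measure a size. The size of the change is therefore uncertain at these few UMIs. The stroke cells also held more mitochondrial RNA. Its median share of a microglia-like cell's UMIs was 2.07% in F sham, 4.93% in F stroke, 1.19% in M sham and 4.57% in M stroke, and 9.21%, 14.0%, 0.84% and 15.1% of barcodes were over the limit of 10%. Stricter quality control, with a limit of 5%, left 2941, 1738, 4071 and 1818 microglia-like cells. There 9 of 10 tested ligands were called higher, Cxcl2 among them, against 22.4% of all 13438 genes tested, and 20.1% of genes were lower. The fit by sex and treatment takes the sexes as the only repeats of a treatment and leaves 1 residual degree of freedom.

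The rise of several ligands came with more cells that held them. Cells were thinned to 3000 UMIs each, because the stroke cells were deeper, which left out 232, 254, 0 and 248 shallower microglia-like cells in the order of the pools above. The share of thinned cells with a Ccl2 UMI was 2.93% in F sham, 25% in F stroke, 6.24% in M sham and 23.9% in M stroke, against 4.55%, 40.8%, 9.47% and 39.5% before thinning. For Ccl12 it went from 22.7% to 53.4% in the F pools and from 31.4% to 50.1% in males. For Cxcl10 it went from 0.697% to 4.77% and from 0.542% to 5.04%, so that most microglia-like cells of the stroke pools had no Cxcl10 UMI at this depth. Ccl6 was in 36.1% of F sham, 37.3% of F stroke, 38.1% of M sham and 36.4% of M stroke cells. Cells of the ependymal or choroid plexus-like class were assumed to lack most of these ligands, which was not tested. They had a Ccl2 UMI in 0% to 4.26% of thinned cells and a Ccl12 UMI in 0.952% to 10.6%, the highest in the F stroke pool. Their median depth was 17145 to 22685.5 UMIs. In the F stroke pool these cells also held 33.5 UMIs per 10000 of the microglia markers, against 7.42 to 10.2 in the other pools.

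Counted together, a thinned microglia-like cell held UMIs of a mean of 0.880 of the 10 ligands in F sham, 1.98 in F stroke, 1.13 in M sham and 1.88 in M stroke. At least 2 ligands were found in 20.2%, 56.8%, 30.03% and 55.6% of cells, and at least 4 in 1.01%, 15.5%, 3.18% and 12.9%. The largest number of ligands in 1 cell was 6 in the M sham pool and 7 in the others.

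In the sham pools a few cells held most UMIs of Ccl3 and Ccl4. The richest 1% of microglia-like cells held 92.5% of Ccl4 UMIs in F sham and 75.4% in M sham, against 37.9% in F stroke and 40.7% in M stroke. For Ccl3 the shares were 71.9% in F sham and 60.1% in M sham, against 27.7% in F stroke and 31.3% in M stroke. Ccl2 likewise went from 68.3% to 26.7% in the F pools and from 50.8% to 29.8% in males. Cxcl10 remained concentrated after stroke, with 75.3% of its UMIs in the richest 1% of F stroke and 74.0% of M stroke cells. Cxcl16 was the most evenly held of the ligands in the stroke pools, at 9.98% and 8.81%. The highest count in 1 cell was 900 Ccl4 UMIs in the M sham pool, 13.6% of that pool's Ccl4.

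The microglia-like cells were clustered again, into 10 clusters numbered 0 to 9. These clusters are described with no test, since they were made from the same cells, and values are given where a pool had at least 50 cells in a cluster. Cluster 7, led by Atf3, Nes, Plaur and the cytokine gene Tnf, had the highest levels of Ccl3 and Ccl4. Ccl4 stood there at 48.9 UMIs per 10000 in the M sham and 21.5 in the F stroke pool, and Ccl3 at 22.0 and 10.3. The 131 M sham cells of cluster 7 were 3.23% of that pool's microglia-like cells and held 74.3% of its Ccl4 and 58.5% of its Ccl3 UMIs. In the F stroke pool the 83 cells of this cluster held 7.81% of Ccl4 and 6.36% of Ccl3 UMIs. Without cluster 7, an alternative chosen after seeing the data, the change with stroke was 2.88 ± 0.15 for Ccl4 and 2.33 ± 0.14 for Ccl3 on the log2 scale.

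Cluster 3, led by the interferon-induced genes Ifit3, Ifit2, Oasl2 and Isg15, had the highest Cxcl10 per 10000 UMIs in both stroke pools. Its cells stood at 2.10 in F stroke (919 cells) and 2.62 in M stroke (850 cells), with 42.7% and 55.7% of the Cxcl10 UMIs of these pools. The 53 F sham cells of cluster 3 stood at 4.26, but 91.8% of these 183 UMIs came from 1 cell, and without it the level was 0.356. Cluster 6, led by cell division genes such as Top2a and Mki67, held 49.4% of the Cxcl10 of F stroke and 31.1% of that of M stroke, at 1.99 and 1.37 per 10000. More of its cells than of cluster 3 had a Cxcl10 UMI, 23.6% against 8.92% in F stroke and 22.9% against 11.6% in M stroke, but after thinning the shares were 9.36% against 5.47% and 7.48% against 8.15%. In cluster 3, Ccl12 stood at 8.22 in F stroke and 12.1 in M stroke. Ccl5 stood there at 0.0852 and 0.307, with 55.6% and 32.7% of its UMIs in 1 cell. In cluster 0, led by Fosb and Ramp1, the F stroke cells had 0.0819 and the M stroke cells 0.0330 Cxcl10 UMIs per 10000.

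Cluster 5, led by Spp1, Fn1 and Lgals3, and cluster 6 held most Ccl2 of the stroke pools. Cluster 5 had 3.96 Ccl2 UMIs per 10000 in F stroke and 3.56 in M stroke, with 43.5% and 35.6% of the pool's Ccl2. Cluster 6 had 3.55 and 4.59, with 37.0% and 39.3%. Cluster 0 had 0.402 and 0.454. Cluster 5 also held the largest share of Ccl4 in the stroke pools, 43.6% and 47.3%, at 6.104 and 5.62 UMIs per 10000. It had 21.2% of F stroke and 20.4% of M stroke microglia-like cells, and cluster 6 had 17.0% and 15.4%. Their median depths were 14561.5 and 15178 UMIs, against 5873 in cluster 0. Shares of a pool's UMIs, those of Cxcl10 above included, therefore carry depth as well, and levels per 10000 are scaled for it. Ccl12 reached 14.1 in F stroke and 10.8 in M stroke cells of cluster 6, and 13.3 in the 61 M sham cells of that cluster. Ccl6 and Cxcl16 varied less than Ccl2, Ccl3, Ccl4 and Ccl12. The M stroke pool had 5 clusters with at least 50 cells. Over these the highest level of Ccl6 was 1.68 times the lowest, and that of Cxcl16 2.78 times. Over the 7 clusters of the F stroke pool the ratios were 5.47 and 2.79. The 7 include clusters 7 and 8, which had 48 and 46 cells in M stroke, so the ratios of the pools are over unlike clusters. For Ccl6 the F stroke ratio is that of cluster 7 to cluster 8. The ratios in F and M stroke were 9.83 and 19.3 for Ccl2, 20.5 and 14.8 for Ccl3, 59.8 and 42.0 for Ccl4, and 9.03 and 8.35 for Ccl12. The clusters with a majority of sham cells were largely of 1 pool each, cluster 1 with 64.9% of F sham and cluster 2 with 51.4% of M sham microglia-like cells, so a cluster there may stand for a library. Among the leading genes of cluster 2 were the choroid plexus marker Ttr and the neuron marker Meg3.

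**Figure D2:**
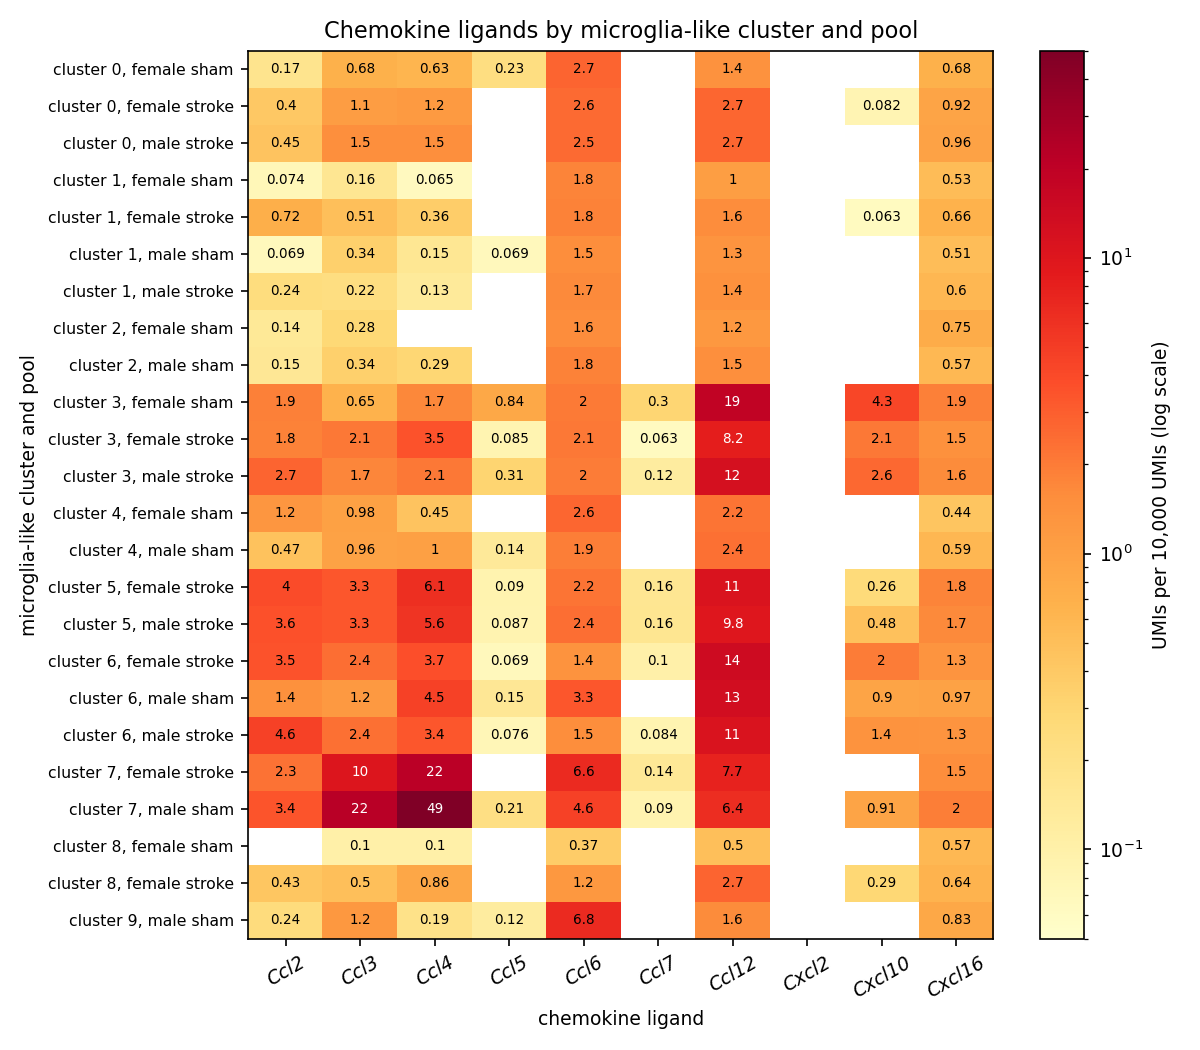
UMIs per 10000 UMIs of each chemokine ligand (colour, log scale, values under 0.05 left white) in each microglia-like cluster and pool with at least 50 cells. Ccl3 and Ccl4 are highest in cluster 7, with 48.9 for Ccl4 in M sham cells, and Cxcl10 in the stroke pools is highest in cluster 3, at 2.10 and 2.62, while Ccl6 lies between 0.370 and 6.78 throughout.

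Promoters are shown for Cxcl10, Ccl12 and Ccl3. Cxcl10 was highest in cluster 3 in both stroke pools, and Ccl3 was high in cluster 7. Ccl12 was not particular to cluster 3. It stood at 8.22, 10.9 and 14.1 UMIs per 10000 in clusters 3, 5 and 6 of F stroke, and at 12.1, 9.76 and 10.8 in those of M stroke. The RefSeq table of GRCm38.p6 held 5 of the 10 ligands (Ccl3, Ccl6, Ccl12, Cxcl2 and Cxcl10), and not Ccl2, Ccl4, Ccl5, Ccl7 and Cxcl16. The 250 bases before each start were searched on both strands for 4 motifs. These were GAAA and GAAA with any 2 bases between (interferon-stimulated response element), GGG and CC with any 5 bases between (NF-kB), TGANTCA (AP-1, where N is any base) and TGACGTCA (ATF and CREB). Capitals mark matches. The motifs were chosen after the sequences had been seen.
Cxcl10, chr5:92348890-92349139, minus strand: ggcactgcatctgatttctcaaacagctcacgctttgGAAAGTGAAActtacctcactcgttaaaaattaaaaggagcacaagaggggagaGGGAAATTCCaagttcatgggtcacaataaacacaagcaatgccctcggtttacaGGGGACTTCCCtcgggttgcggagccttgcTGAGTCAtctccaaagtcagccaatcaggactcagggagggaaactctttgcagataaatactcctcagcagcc
Ccl12, chr11:82101595-82101844, plus strand: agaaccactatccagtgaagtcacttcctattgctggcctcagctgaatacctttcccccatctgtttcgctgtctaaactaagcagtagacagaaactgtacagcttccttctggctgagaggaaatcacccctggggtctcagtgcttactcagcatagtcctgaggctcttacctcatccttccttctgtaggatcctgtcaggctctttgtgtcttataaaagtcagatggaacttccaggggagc
Ccl3, chr11:83649379-83649628, minus strand: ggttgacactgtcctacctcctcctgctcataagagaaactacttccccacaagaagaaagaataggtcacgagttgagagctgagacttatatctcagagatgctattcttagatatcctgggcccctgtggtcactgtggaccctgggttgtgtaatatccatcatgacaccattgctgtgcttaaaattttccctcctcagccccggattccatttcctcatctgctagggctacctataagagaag
The Cxcl10 promoter held GAAAGTGAAA with its first base 213 bases before the start, GGGAAATTCC at 159, the overlapping GGGGACTTCC and GGGACTTCCC at 104 and 103, and TGAGTCA at 74. Among 32851 promoters of the same length, the interferon-stimulated response element was in 2.98%, the NF-kB motif in 45.8%, TGANTCA in 6.75% and TGACGTCA in 1.55%. Those of Ccl12, Ccl3 and Ccl6 held no match in these windows, and that of Cxcl2 held the NF-kB motif at 97, 96 and 78. A match is a run of letters and not a bound site.

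The genes whose pattern over the microglia-like clusters was most like that of a ligand were found over 24 sums of pool and cluster, after each pool's mean was subtracted from log2(CPM + 10). The sums share libraries and cells, so the Pearson correlations are descriptions across clusters, among 9313 genes. Next to Cxcl10 stood Phf11a (0.93), Ifit3 (0.92), Irf7 (0.92), H2-Q7 (0.90) and Usp18 (0.90). Next to Ccl5 stood H2-Q7 (0.87), Sp100 (0.85), Ifitm3 (0.85), Ifi47 (0.85) and Bst2 (0.85). Next to Ccl4 stood Tnf (0.92), Gpr84 (0.90), Asns (0.89), Atf3 (0.87) and Snx8 (0.87). Next to Ccl2 stood Sdf2l1 (0.91), Capg (0.87), Clic4 (0.87), Cd72 (0.87) and Cox6a2 (0.86). Next to Cxcl16 stood Cox6a2 (0.92), Afp (0.91), Csf1 (0.89), Cstb (0.88) and Mif (0.87).

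Which ligands share cells was described in thinned microglia-like cells from both stroke pools, as the number of cells with UMIs of both ligands over the number expected from the separate shares. Ccl3 and Ccl4 were in 356 F stroke cells together where 151 were expected, a ratio of 2.35, and in 312 M stroke cells where 120 were expected, a ratio of 2.59. Of the F stroke cells with a Ccl4 UMI, 54.8% also had one of Ccl3. Ccl2 and Ccl7 shared cells at ratios of 2.36 and 2.84, Ccl2 and Cxcl10 at 2.35 and 2.33, and Ccl4 and Cxcl10 at 2.45 and 2.10 in F and M stroke. These were the 4 of 33 pairs at 2 or more in both stroke pools. Shared cells were not particular to stroke. In M sham the ratios of Ccl3 with Ccl4, Ccl2 with Ccl4 and Ccl2 with Ccl3 were 3.72, 3.58 and 2.64, against 2.59, 1.78 and 1.42 in M stroke. In F sham Ccl3 and Ccl4 were in 38 cells together where 4.92 were expected. Ccl2 with Ccl7, Ccl2 with Cxcl10 and Ccl4 with Cxcl10 had under 5 expected cells in each sham pool. Of the F stroke cells with a Cxcl10 UMI, 58.8% also held Ccl2, against 25% of all cells. Ccl6 had ratios below 1 with some ligands and not with others. They were 0.89 and 0.87 with Ccl2, 0.94 and 0.95 with Ccl12 and 0.91 and 0.89 with Cxcl10, but 1.13 and 1.09 with Ccl3, 1.11 and 1.10 with Ccl4 and 1.03 and 0.99 with Cxcl16. When the expected number was computed within each microglia-like cluster, the ratio was 1.95 and 2.18 for Ccl3 with Ccl4, 2.04 and 2.31 for Ccl2 with Ccl7, 1.95 and 1.91 for Ccl2 with Cxcl10, and 2.16 and 1.93 for Ccl4 with Cxcl10. In M sham the ratio within clusters was 1.72 for Ccl3 with Ccl4. Cells of 1 library share its free RNA and any doublets, so these ratios carry no test.

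**Figure D3:**
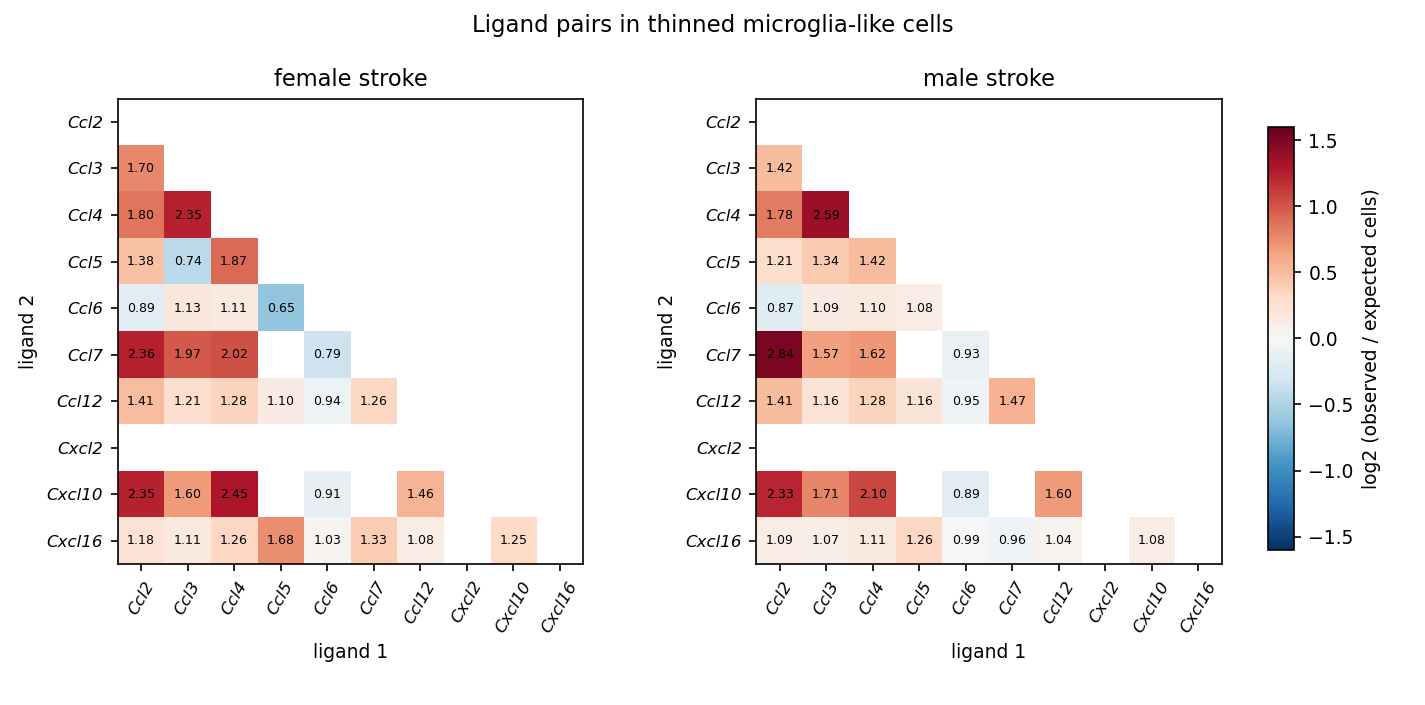
Observed over expected number of thinned microglia-like cells that hold UMIs of both ligands of a pair, printed in each square and coloured as log2, in the F and the M stroke pool, for pairs with at least 5 expected cells. Ccl3 with Ccl4 (2.35 and 2.59) and Ccl2 with Ccl7 (2.36 and 2.84) are among the highest in both, while Ccl6 with Ccl2 stands at 0.89 and 0.87.

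Across the other cell classes each ligand had its own distribution. Levels are UMIs per 10000 of the class in a pool, without a test, and many classes had few cells. Ccl5 was highest in T or NK cell-like cells, at 22.7 (13 cells), 37.2 (20 cells), 21.5 (11 cells) and 35.8 (18 cells) in F sham, F stroke, M sham and M stroke. There 1 cell held between 29.3% and 55.1% of the UMIs. Dendritic cell-like cells, the antigen-presenting cells named from genes such as Cd209a and H2-Ab1, had 0 Ccl5 UMIs in 23 F sham cells and 2 in 42 M sham cells. After stroke they had 544 Ccl5 UMIs in 124 female cells and 415 in 90 male cells, which is 3.73 and 3.53 per 10000. In the F stroke pool 93.8% of these UMIs and in the M stroke pool 99.0% lay in cells that also held a UMI of Ccr7, a receptor of migrating dendritic cells and 1 of the markers of this class. A Ccr7 UMI was in 11 of 23 F stroke dendritic cell-like cells with Ccl5 and in 2 of 101 without it, and in 5 of 9 and 5 of 81 M stroke ones. In the M stroke pool 1 cell held 56.4% of the Ccl5 of this class. Clustered at Leiden resolution 1.6, the dendritic cell-like class held 111 F stroke and 79 M stroke cells. The T or NK cell-like class then held 31 and 24, with Ccr7 among its leading genes, as it also was under stricter quality control. The class of the cells with Ccl5 and Ccr7 may therefore depend on the clustering, which was not tested. Under stricter quality control, with the cells clustered anew, the dendritic cell-like class was made of a cluster of 55, 19, 108 and 3 cells, in the order of the pools above, and another of 0, 94, 0 and 70 cells. Its sham and stroke cells may therefore be different cells, and its values by treatment, those of Cxcl16 and Ccl6 below included, cannot be told apart from this.

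Cxcl2 was highest in neutrophil-like cells, the class led by S100a8 and S100a9, at 5.45 UMIs per 10000 (112 F stroke cells) and 5.75 (68 M stroke cells). In the M stroke pool 1 neutrophil-like cell held 51.5% of its Cxcl2. T or NK cell-like cells of the stroke pools had Ccl4 at 6.01 and 3.92. Neutrophil-like cells had Ccl3 at 2.28 and 4.58 and Ccl4 at 2.21 and 3.66. Their Cxcl10 in the F stroke pool, 2.49, came to 99.1% from 1 cell. Cxcl16 was highest in dendritic cell-like cells of the stroke pools, at 4.48 (4.14 to 4.84, exact Poisson 95% interval) in females and 4.59 (4.21 to 4.99) in males, against 1.18 (0.889 to 1.54) and 1.39 (1.10 to 1.73) in the sham pools. Ccl6 in that class stood at 1.36 in F stroke against 2.91 in F sham and at 1.93 in M stroke against 4.95 in M sham. The same ligand was highest in monocyte-derived macrophage-like cells, at 10.9 in F stroke and 10.3 in M stroke. In the M sham macrophage-like cells, Ccl2 stood at 5.41, but 91.5% of it came from 1 of 44 cells, and most sham cells of this class lay in a cluster led by Ear2, Treml4 and Spn rather than in that of the stroke cells.

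**Figure D4:**
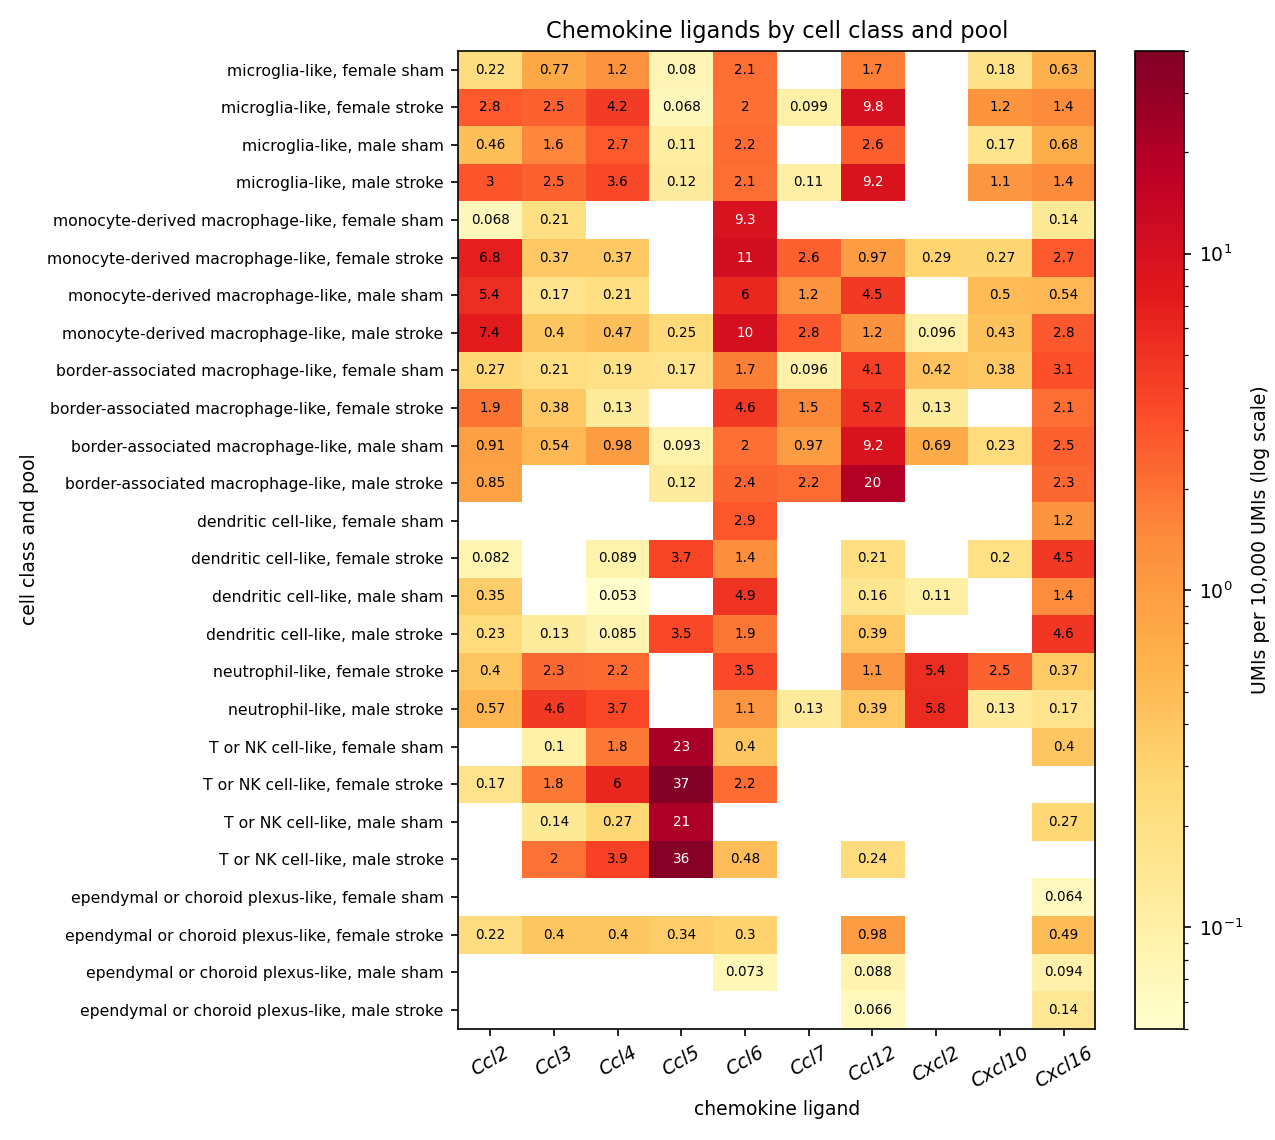
UMIs per 10000 UMIs of each chemokine ligand (colour, log scale, values under 0.05 left white) in each named class and pool with at least 10 cells. Ccl5 is highest in T or NK cell-like cells (21.5 to 37.2), Cxcl2 in neutrophil-like cells (5.45 and 5.75), Ccl6 in monocyte-derived macrophage-like cells (10.9 in F stroke) and Ccl12 in microglia-like and border-associated macrophage-like cells.

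The second comparison set the stroke pools' monocyte-derived macrophage-like cells, blood-borne cells that enter injured tissue, against the microglia-like cells sorted with them. Of the 10 ligands, 5 were higher and 4 lower in the macrophage-like cells by edgeR's quasi-likelihood test with pool as a block. Over all 13436 genes tested 34.4% were higher (4617 genes) and 36.3% lower (4877 genes), or 3149 and 6610 with library totals, so the share of ligands called is to be read against a large background. The median log2 difference was 0.90 over the ligands and -0.05 over all genes. This fit has 1 residual degree of freedom as well.

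The ligands of Ccr2 were split between these classes. Ccl7 stood at 286 CPM in female and 308 CPM in male macrophage-like cells, against 8.97 and 9.69 CPM in microglia-like cells, a log2 difference of 4.99 ± 0.06 (edgeR adjusted p = 6.71e-11). Ccl2 was higher by 1.57 ± 0.06 (edgeR adjusted p = 4.20e-08), at 754 and 802 CPM against 250 and 275 CPM. Ccl12 went the other way, at 107 and 135 CPM in macrophage-like and 894 and 839 CPM in microglia-like cells, a log2 difference of -2.85 ± 0.10 (edgeR adjusted p = 1.56e-08). Thus neighbouring genes of this group differed in opposite directions in both pools.

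Ccl3 and Ccl4 were lower in macrophage-like cells, with log2 differences of -2.41 ± 0.05 and -2.97 ± 0.12 (edgeR adjusted p = 9.68e-10 and 3.13e-08). Ccl4 stood there at 41.6 CPM in F stroke and 50.3 CPM in M stroke, against 386 and 327 CPM in microglia-like cells. Cxcl10 was lower as well, with a log2 difference of -1.50 ± 0.12 (edgeR adjusted p = 4.02e-06), and 75.8% of the M stroke macrophage-like Cxcl10 UMIs came from 1 cell. Ccl6 was higher in macrophage-like cells by 2.62 ± 0.07 and Cxcl16 by 1.23 ± 0.07 (edgeR adjusted p = 2.85e-09 and 2.95e-07). Cxcl2 was higher by 5.40 ± 0.40 (edgeR adjusted p = 2.29e-06), at 32.0 CPM in female and 10.4 CPM in male macrophage-like cells against 0.292 and 0.701 CPM. Under stricter quality control this was 4.402 ± 0.32. Ccl5 did not pass, with a log2 difference of 0.57 ± 0.32 (edgeR adjusted p = 0.139) and the pools in opposite directions.

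**Figure D5:**
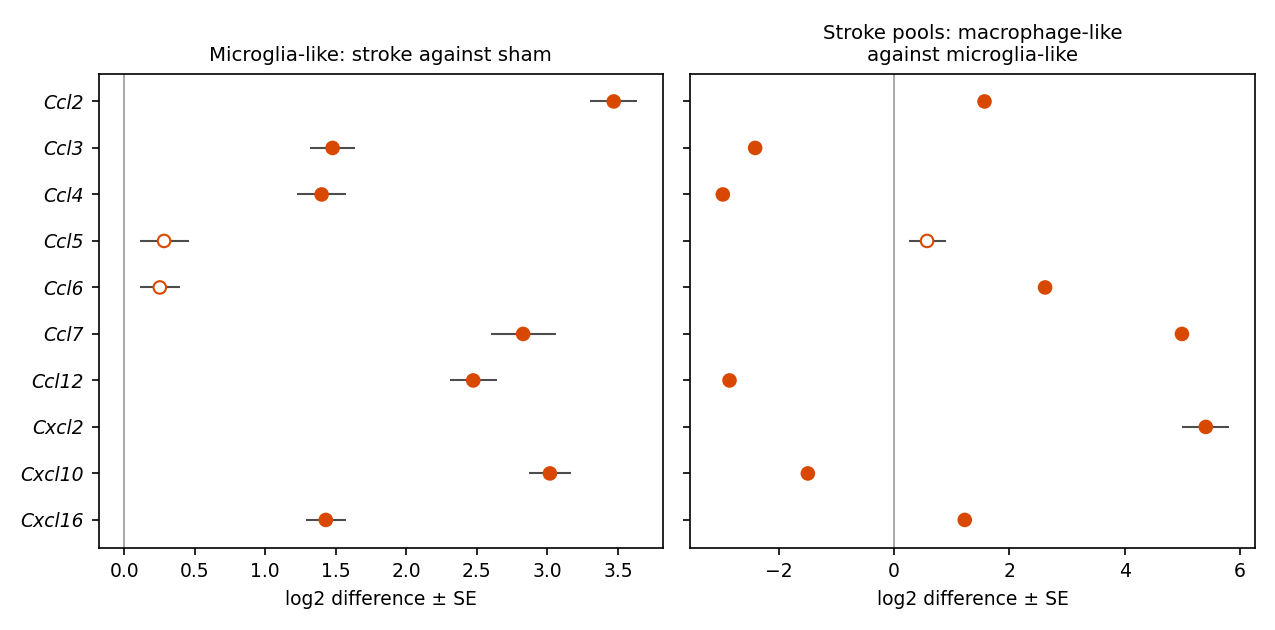
Log2 difference ± SE of each chemokine ligand from the edgeR fits, on the left in microglia-like cells after stroke against sham, where Cxcl2 was not tested, and on the right in macrophage-like against microglia-like cells of the stroke pools. Filled points passed an adjusted p of 0.05. Ccl2 and Ccl7 lie to the right of 0 in both panels, and Ccl12 at 2.47 on the left and -2.85 on the right.

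Markers of macrophages were also measured in the microglia-like sums. The 11 markers of that class, Ly6c2, Ccr2 and Chil3 among them, stood in stroke microglia-like cells at between 0.102% (Ly6c2, male) and 8.27% (Itga4, female) of their macrophage-like level. Ccl7 stood at 3.14% in both pools and Cxcl2 at 0.914% and 6.72%, within the range of these markers. Ccl7 lay below Itga4 and Ms4a4c (6.23% female and 6.99% male) in both pools, and below Vcan (3.31%) in the male pool. It lay above all the other markers. Ccl6 at 15.3% and 17.3%, Ccl2 at 33.2% and 34.3% and Cxcl16 at 42.9% and 42.6% lay above every marker. Apart from the fit without cells that hold a macrophage marker UMI, given above for Ccl7, the part of macrophage RNA was not tested.

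Receptors and other ligands were counted over whole lists. Among 11 tested of 14 listed chemokine receptors, 3 were higher and 2 lower in microglia-like cells after stroke, against 25.7% and 26% of all genes. Cx3cr1, the receptor of fractalkine and a gene typical of microglia, fell by 0.90 ± 0.16 on the log2 scale (edgeR adjusted p = 1.50e-06), from 5015 to 2368 CPM in the F pools and from 3984 to 2407 CPM in the M pools. The other receptors called had under 50 CPM in each pool. In macrophage-like against microglia-like cells 5 of 10 tested receptors were higher and 4 lower, against 34.4% and 36.3% of all genes. Ccr2 and Cx3cr1 had also served as class markers. The higher ones included Ccr2 (8.02 ± 0.19), Cxcr4, the receptor of Cxcl12 (6.59 ± 0.08), and Ccr1 (5.49 ± 0.09), and the lower ones Cx3cr1 (-2.64 ± 0.06), all log2 differences. Of 10 tested of 21 other listed ligands, 5 rose and 4 fell after stroke, against the same 25.7% and 26%, with Ccl9, a Ccr1 ligand, at 0.83 ± 0.15 (edgeR adjusted p = 1.00e-06). In macrophage-like cells 8 of 12 tested were higher and 1 lower, against 34.4% and 36.3%, among them Pf4, platelet factor 4, at 7.65 ± 0.18 and Ccl9 at 2.20 ± 0.07. Of 3 listed enzymes that cleave chemokines, 2 were tested after stroke and 0 passed by edgeR's quasi-likelihood test, against 25.7% higher and 26% lower of all genes. Adam10, which sheds Cxcl16, had a log2 difference of 0.32 ± 0.14 there (unadjusted p = 0.0272, edgeR adjusted p = 0.0524) and was called by DESeq2 (adjusted p = 0.0431), and Adam17 stood at 0.20 ± 0.14 (edgeR adjusted p = 0.2205). Between the classes 1 of 3 was higher (Dpp4), 1 lower (Adam10) and 1 did not pass (Adam17), near the 34.4% and 36.3% of all genes. Adam10 was lower in macrophage-like than in microglia-like cells, with a log2 difference of -0.63 ± 0.06 (edgeR adjusted p = 1.11e-05).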

How the data were processed

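The deposited matrices hold counts of UMIs per gene and barcode, with cells called by the authors. Per the file headers they came from Cell Ranger 6.1.2, and per the submitters' processing notes from 7.1.0 with build mm10. The use of intronic reads is not stated there. A cell was kept from 500 genes and 1000 UMIs upward, with no more than 10% mitochondrial UMIs. Scanpy 1.11.5 reduced 2000 variable genes to 30 principal components and clustered a graph of 15 neighbours with Leiden at resolution 0.8. Classes were named from markers. No doublet caller was run, so doublets remain.

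Counts were summed per pool and class and tested with edgeR 4.0.16 (TMM, default filter, two-sided, Benjamini-Hochberg at 0.05). An SE is the absolute log2 difference divided by the square root of F. It is no spread between mice, and neither is the moderated variance, which draws on 94.7 (stroke against sham) and 7.93 (classes) prior degrees of freedom. The summed microglia-like counts were 19822526, 40443604, 24094904 and 37922965 UMIs in F sham, F stroke, M sham and M stroke. The code was tested on simulated data. All 10 ligands are named in each comparison. From the lists, called genes with at least 50 CPM in 1 sum are named, at most 6 a list, except 1 receptor that is not reported here, and like-pattern genes are the 5 of highest correlation with at least 20 CPM. The members and lists were chosen with earlier results of these data known. Alternatives, DESeq2 1.42.0 among them, are in the closing section.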

Additional observations from a re-analysis of the deposited data

Results flagged for a closer look

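Ccl5 went opposite ways in the female and the male stroke pool when macrophage-like cells were set against microglia-like cells. The log2 difference of scaled CPM was -0.60 in the female pool (4.10 against 6.23 CPM) and 1.25 in the male pool (27.1 against 11.4 CPM). This difference between the sexes was not tested. In the male stroke pool 85.9% of the 205 macrophage-like Ccl5 UMIs came from 1 cell, and in the female stroke pool 43.9% of 57.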

How the results depend on the processing

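Of the 144 single-ligand values recomputed for stroke against sham, 135 kept their direction and side of the threshold, and of the 80 for macrophage-like against microglia-like cells 78 did. Library totals turned Ccl5 to -0.025 and Ccl6 to -0.056 on the log2 scale, and moved the median of all genes from -0.05 to -0.35. Fits without 1 pool also drop the sex term and leave a treatment with 1 pool, which is assumed to vary like the other. Leaving out 1 pool gave Ccl5 a range of -0.18 (without male stroke) to 0.69 (without female stroke), the latter called, and Ccl6 passed the test at 0.20 without female sham and 0.36 without male sham. Ccl6 also passed at 0.39 without cells holding a macrophage marker UMI, and Ccl5 at 0.83 under stricter quality control. Between the classes Ccl5 passed with no filter on low counts (0.53) and after thinning (0.81). The causes were not tested. Pairs at 2 or more in both stroke pools numbered 2 of 37 without thinning, against 4 of 33. Genes called higher and lower after stroke numbered 3665 and 3712, against 2819 and 1843 with DESeq2, 2321 and 1874 after thinning, 2403 and 1763 without female stroke and 2500 and 1918 without male stroke. Between the classes they were 4617 and 4877, against 3149 and 6610 with library totals and 3391 and 2816 with DESeq2. With 2 stroke pools, leaving out 1 in the class comparison leaves no residual degrees of freedom and was not run. No paired analysis was possible because the labels give no replicate numbers that could pair samples. The fits carry sex (stroke) or pool (classes) as a term. Without sex, 7 of 9 ligands were higher after stroke, against 25.1% of all genes. Without pool, 5 of 10 were higher and 4 lower in macrophage-like cells, against 33.6% and 35.8% of all genes. Depth limits Cxcl2 in F sham microglia-like cells, where 0 of 19822526 UMIs allows up to 0.00151 per 10000, for counting error only.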

Other observations

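Border-associated macrophage-like cells, the resident macrophages of the brain's borders, were few (58, 28, 108 and 14 cells in F sham, F stroke, M sham and M stroke). Ccl12 stood there at 4.13, 5.15, 9.19 and 19.8 UMIs per 10000, with 29.6% of the F sham UMIs, 30.3% of the F stroke, 11.2% of the M sham and 30.9% of the M stroke UMIs in 1 cell. Ccl7 stood at 0.0956, 1.52, 0.969 and 2.20. Cxcl16 was at 3.10, 2.11, 2.52 and 2.32, above the microglia-like level of the same pool in each.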
